A study of Mus musculus with 30 samples.

Results

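The 36 genes described here are 21 genes that mark astrocytes and 15 genes that astrocytes turn up when they become reactive, out of 36717 genes and transcripts measured on the array. They were chosen by name: the identity genes hold the transporters, enzymes, channels and transcription factors by which astrocytes are recognised, and the reactivity genes hold the intermediate filaments, receptors and secreted proteins of the pan-reactive response, with the metallothioneins. All 36 were found on the array. Astrocytes take up glutamate and potassium, hand glutamine back to neurons, wrap the vessels with end feet rich in water channels and hold the tissue together through gap junctions. In injury, infection and around amyloid plaques they enlarge, fill with filament proteins and start to make cytokine receptors, protease inhibitors and acute phase proteins, a response driven in part by STAT3. Id3 and Id4, which bind other helix-loop-helix factors and keep them off DNA, are classical targets of bone morphogenetic protein signalling and are made by astrocytes, Id3 also by cells of the vessel wall.

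RNA was taken from hippocampus and from brain of the same 15 mice after perfusion with saline, the brain being what was left once the hippocampus had been taken out, as the study's text has it, and each sample was hybridised to its own 1-colour array. The mice were 15 to 20 months old and all carried the strain label C57BL/6j. The 3×TgAD mouse is a model of early onset Alzheimer's disease with human transgenes of mutant amyloid precursor protein and mutant tau, driven by the neuronal Thy1 promoter, and a mutant presenilin knock-in. The JHT mouse lacks the immunoglobulin JH segments in every cell and so makes no mature B cells, and the 3×TgAD-BKO mouse, labelled JHT_3xTgAD, carries both. There were 5 3×TgAD mice (2 females and 3 males), 5 3×TgAD-BKO mice (2 females and 3 males), 3 female wild-type (WT) mice and 2 female JHT mice, so that genotypes without the transgenes were compared in females only. The p-values measure the spread between these mice. In such bulk tissue, fewer cells of a type and less RNA per cell cannot be told apart.

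All values below are log2 signals, quantile-normalised over the 30 arrays, and changes are differences of log2 signals with their standard error (SE). A change passed where the limma p-value, adjusted by Benjamini-Hochberg over all 36717 genes and transcripts, lay under 0.05. The share of probes well above background was 52.6% to 62.5%, the 75th percentile of the intensity was 455 to 803 in the hippocampus and 842 to 1637 in the brain, and no probe was saturated. The array of the hippocampus of 3×TgAD-BKO male 0 carried 432 outlier spots against 102 to 160 on the others. The tissue labels held: Prox1, a marker of dentate granule cells, lay at 8.34 to 9.30 in hippocampus and 6.20 to 7.18 in brain, and the striatal receptor gene Drd1 at 6.26 to 8.13 and 9.40 to 10.12. Thy1, whose promoter drives the transgenes, was 17.95 to 18.28 in hippocampi of the transgenic and 16.85 to 17.06 in those of the other mice. The arrays lay on 4 slides, and 3×TgAD females shared no slide with WT females, nor 3×TgAD-BKO with JHT females, so these groups alone cannot tell genotype from slide. All 3×TgAD arrays of a tissue lay on 1 slide. It held both 3×TgAD-BKO females, but not males 8 and 9 in the hippocampus or males 0 and 9 in the brain. Genotype and slide thus overlap in part for 3×TgAD-BKO against 3×TgAD in males and over both sexes.

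Of the 36 members, 35 were well above background on all 30 arrays. The exception was Steap4, a ferrireductase that inflammation induces, which reached that level on 3 arrays and is therefore given no order between groups. Over the 15 mice both kinds of member held narrow and wide ones. In the brain the SD of Aldoc, the brain aldolase, was 0.062, that of the sodium pump subunit gene Atp1b2 0.063, and that of Aldh1l1, a folate enzyme used as the pan-astrocyte marker, 0.076, and that of Stat3 0.13, whereas Id4 had 0.62 in the hippocampus and Fabp7 0.46 in the brain. Leaving Steap4 aside, the widest were mostly reactivity members, with an SD of 1.05 in the hippocampus for Timp1, a metalloproteinase inhibitor, 0.94 in the brain for Cd14, an endotoxin co-receptor, and 0.86 in the hippocampus for Cp, which codes for ceruloplasmin, the copper ferroxidase. Fgfr3 also had 0.86 in the hippocampus, with 1 array far below the rest.

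**Figure D1:**
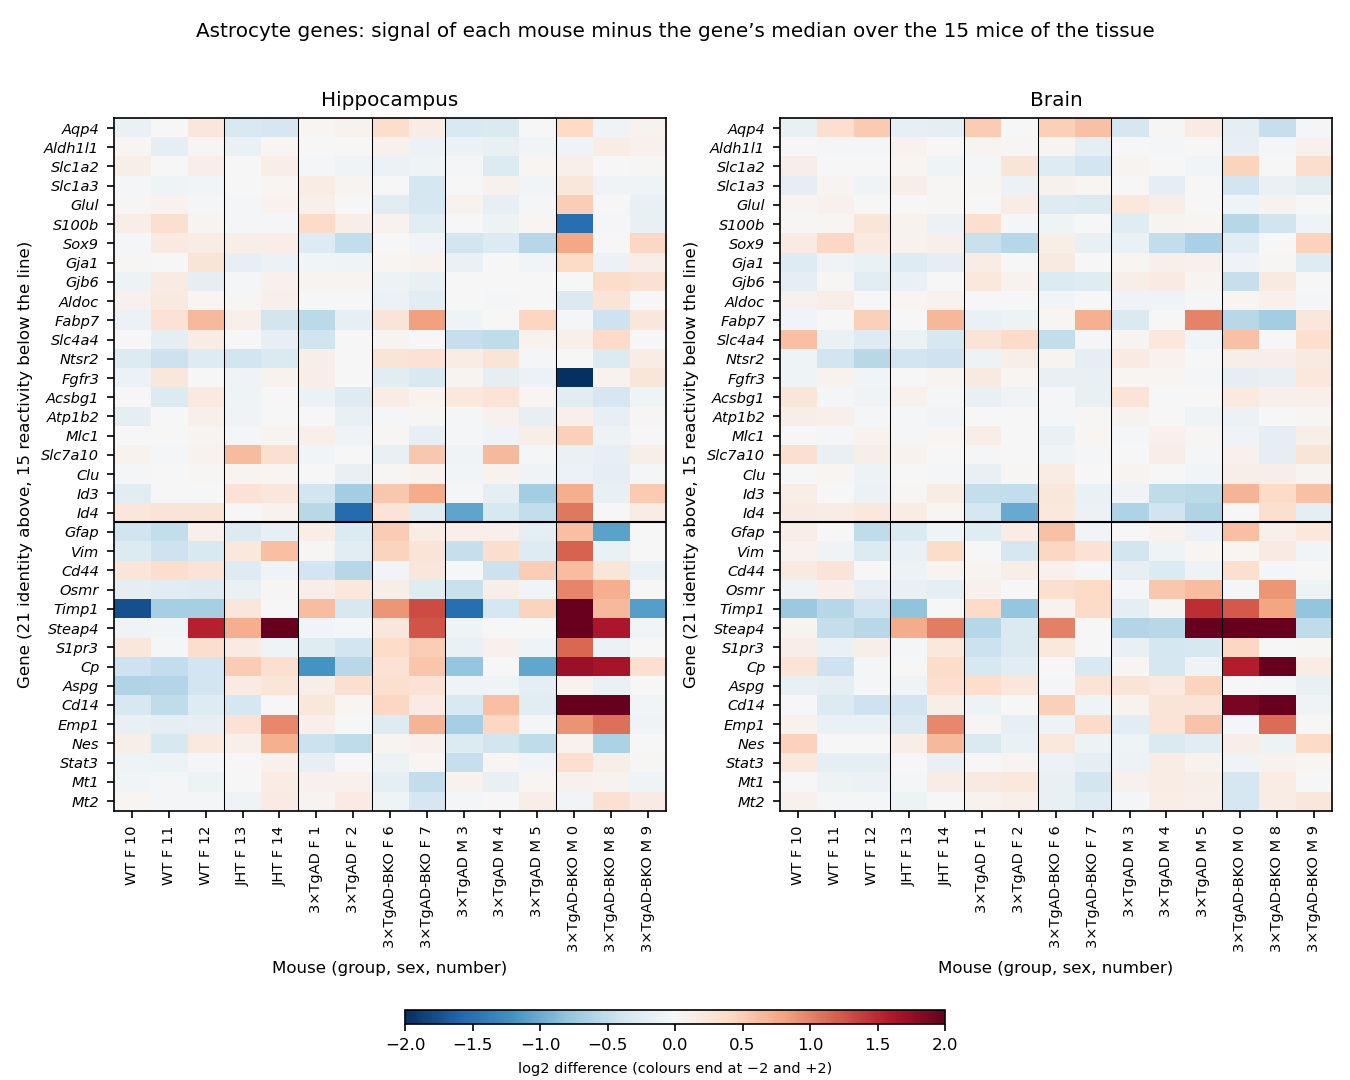
Heat map of the 36 members (rows) in the 15 mice (columns) of each tissue, coloured by log2 signal minus the gene's median over the 15 mice of that tissue, with colours ending at −2 and +2. Most identity rows are pale. Id4 and Sox9 are lower in most 3×TgAD mice, and Id3 is higher in most 3×TgAD-BKO mice. Cp, Cd14 and Timp1 are among the rows that vary most between mice.

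Mice that lacked B cells on the 3×TgAD background had higher Id3 in both tissues, higher Id4 in the brain and higher Cp in the hippocampus. Over both sexes, 2 of the 36 members passed in the hippocampus, Cp (2.95-fold) and Id3 (1.89-fold), where 1.02% of all genes passed. In the brain 2 passed as well, Id3 (1.66-fold) and Id4 (1.57-fold), against 2.64% of all genes. All were higher in 3×TgAD-BKO. The structural and metabolic identity genes and Gfap did not pass. At an unadjusted limma p under 0.05 there were 8 of the 36 members in the hippocampus, where 10.5% of all genes were, and 11 in the brain, where 14.5% were.

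The median change of the 15 reactivity members was 0.39 in the hippocampus and 0.20 in the brain, and 13 of the 15 were positive in the hippocampus and 11 in the brain. These medians and counts include Steap4, counted as positive in both tissues though its signal was too near background for an order. The 21 identity members had medians of 0.03 and −0.04, with 14 of 21 positive in the hippocampus and 7 in the brain. Over all 36717 genes the medians were 0.01 and 0.00, and 18974 changes were positive in the hippocampus and 18444 in the brain. Within 1 sex the arrays were fewer. In females no member passed by limma in either tissue, where 0.37% of all genes passed in the hippocampus and 1.12% in the brain, with 6 and 9 members at an unadjusted p under 0.05 (16.4% and 12.9% of all genes). In males no member passed in the hippocampus (0.847% of all genes), where 11 were at an unadjusted p under 0.05 (18.2% of all genes), and 1, Id3, passed in the brain (0.961% of all genes), where 8 were (11.5%). The methods' t-test with Benjamini-Hochberg adjustment called no member in any of these 6 comparisons.

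**Figure D2:**
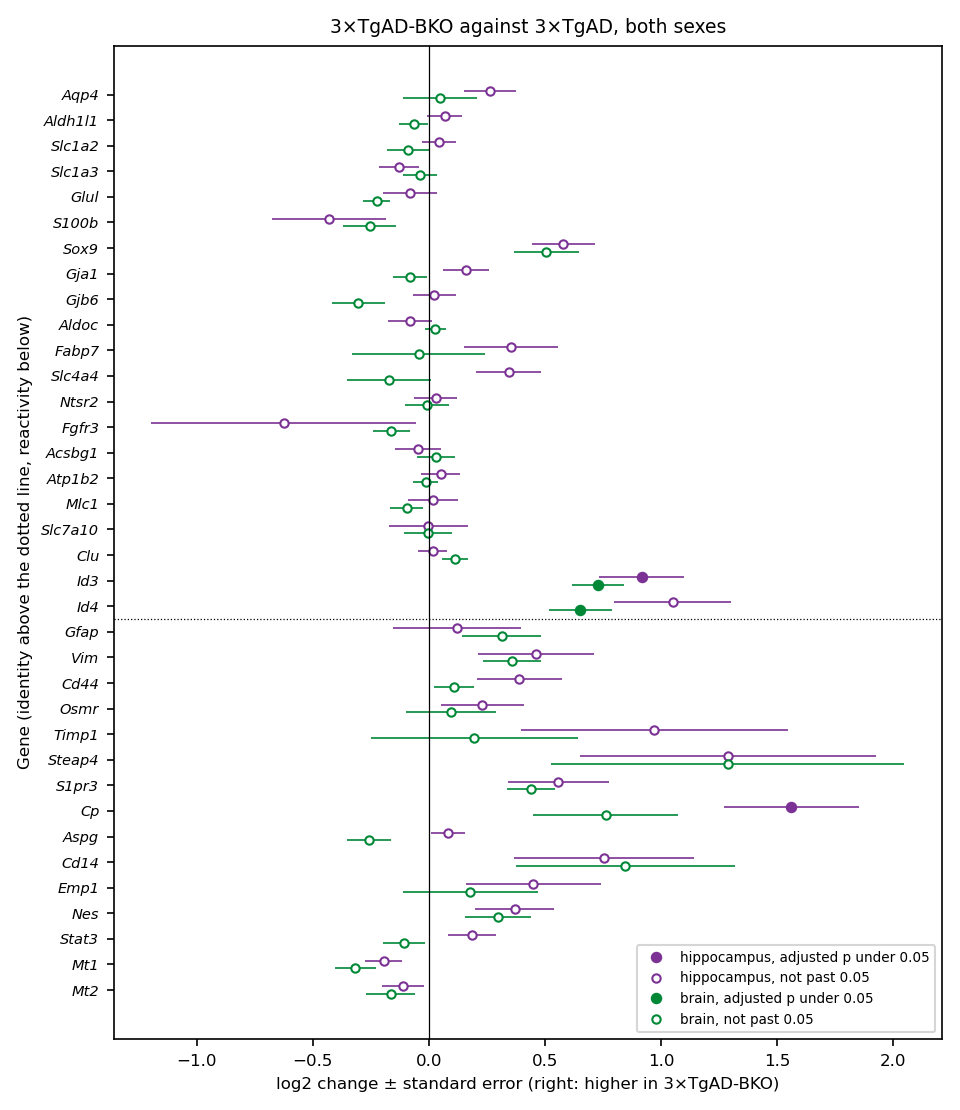
Change of each member between 3×TgAD-BKO and 3×TgAD mice, both sexes, in hippocampus (purple) and brain (green), as log2 difference ± SE. Filled points passed an adjusted p of 0.05: Id3 in both tissues, Id4 in the brain and Cp in the hippocampus.

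Of the 36 members, 31 have a promoter in the RefSeq table (GRCm38.p6), in 36 entries of 300 bases that run from 250 bases before to 50 bases after a gene's start. The promoters of Id3 (chr4:136143572-136143871, plus strand) and Id4 (chr13:48260866-48261165, plus strand) are shown because both members passed in the brain. Capitals mark GGCGCC, a SMAD-binding element of genes that respond to bone morphogenetic proteins. The motif reads the same on both strands.
Id3: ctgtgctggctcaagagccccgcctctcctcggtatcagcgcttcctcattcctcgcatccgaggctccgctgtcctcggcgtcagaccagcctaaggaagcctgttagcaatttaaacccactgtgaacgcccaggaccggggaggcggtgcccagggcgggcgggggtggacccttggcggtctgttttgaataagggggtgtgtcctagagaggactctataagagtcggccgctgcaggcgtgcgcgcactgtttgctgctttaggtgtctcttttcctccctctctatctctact
Id4: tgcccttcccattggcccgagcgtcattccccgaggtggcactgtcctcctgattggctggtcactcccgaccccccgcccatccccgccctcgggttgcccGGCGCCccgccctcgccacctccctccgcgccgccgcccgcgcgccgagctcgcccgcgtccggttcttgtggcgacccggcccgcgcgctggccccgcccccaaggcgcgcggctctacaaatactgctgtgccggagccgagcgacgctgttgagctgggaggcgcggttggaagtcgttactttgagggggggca
The Id4 window held 1 such element, at position 103 from its first base, and the Id3 window held none of these letters. The element stood in 4 of the 36 entries of the members and in 11.9% of all 32851 promoters. The STAT element, TTCNNNGAA, stood in 7 of the 36 entries, that of Gfap among them, and in 8.3% of all.

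Id3 in the hippocampus stood at 11.43 and 11.10 in the female and 11.77, 11.61 and 11.10 in the male 3×TgAD mice. In 3×TgAD-BKO mice it was 12.33 and 12.54 in females and 12.52, 11.64 and 12.31 in males. In WT mice it was 11.58, 11.79 and 11.81, and in JHT mice 12.07 and 12.01. Of the 5 3×TgAD-BKO mice, 4 lay above every mouse of the other genotypes, and male 8 fell within the 3×TgAD range. The change was 0.92 (SE 0.18, limma adjusted p = 0.0461), with 1.17 (SE 0.28) in females and 0.66 (SE 0.23) in males. In the brain Id3 was 11.17 and 11.16 in female and 11.58, 11.14 and 11.12 in male 3×TgAD mice. It was 11.87 and 11.52 in female and 12.33, 12.04 and 12.24 in male 3×TgAD-BKO mice. The ranges touched only through 3×TgAD male 3 and 3×TgAD-BKO female 7. WT brains had 11.78, 11.65 and 11.54 and JHT brains 11.67 and 11.80, between most mice of the other genotypes. The change was 0.73 (SE 0.11, limma adjusted p = 0.00690), and in males alone it was 0.92 (SE 0.14, limma adjusted p = 0.0125).

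Id4 in the hippocampus was 11.28 and 10.29 in female and 10.78, 11.51 and 11.34 in male 3×TgAD mice, against 12.10 and 11.62 in female and 12.89, 11.82 and 11.98 in male 3×TgAD-BKO mice. The 3 WT mice were at 12.05, 12.08 and 12.10, and the JHT mice at 11.83 and 11.90. All 5 3×TgAD mice thus lay below every mouse of the other genotypes. In the brain the order was the same. Id4 was 12.01 and 11.35 in female and 11.75, 11.96 and 11.76 in male 3×TgAD mice, and 12.56 and 12.24 in female and 12.36, 12.68 and 12.18 in male 3×TgAD-BKO mice. WT mice had 12.52, 12.51 and 12.56 and JHT mice 12.51 and 12.39. The change between 3×TgAD-BKO and 3×TgAD was 1.05 in the hippocampus (SE 0.25, limma adjusted p = 0.110) and 0.65 in the brain (SE 0.14, limma adjusted p = 0.0327). Only the brain value passed, and it no longer did in 13 of 22 alternatives, which include leaving out each mouse.

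Sox9, the transcription factor that sets astrocyte fate, had a like order. In the hippocampus it was 10.35 and 10.12 in female and 10.24, 10.33 and 10.04 in male 3×TgAD mice, and 10.62 and 10.56 in female and 11.38, 10.61 and 11.02 in male 3×TgAD-BKO mice. WT mice were at 10.57, 10.78 and 10.75 and JHT mice at 10.73 and 10.75, so the 3×TgAD range lay below the other 3 genotypes. In the brain Sox9 was 9.997 and 9.86 in female and 10.31, 9.94 and 9.79 in male 3×TgAD mice, against 10.58 and 10.29 in female and 10.23, 10.44 and 10.90 in male 3×TgAD-BKO mice, with male 3 of the 3×TgAD mice inside the other range. WT brains had 10.61, 10.85 and 10.64 and JHT brains 10.51 and 10.54, above all 3×TgAD mice. The change was 0.58 in the hippocampus (SE 0.13, limma adjusted p = 0.0932) and 0.51 in the brain (SE 0.14, limma adjusted p = 0.106), and neither passed.

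S1pr3, a receptor for sphingosine 1-phosphate that reactive astrocytes carry, was listed among the reactivity genes. Its brain signal was 7.85 and 7.98 in female and 8.13, 7.93 and 7.95 in male 3×TgAD mice, and 8.48 and 8.28 in female and 8.69, 8.27 and 8.29 in male 3×TgAD-BKO mice. The groups did not overlap, and WT (8.40, 8.15 and 8.39) and JHT mice (8.24 and 8.48) also lay above all 3×TgAD mice. The change of 0.44 (SE 0.10, limma adjusted p = 0.058) missed the threshold. In the hippocampus S1pr3 was 8.18 to 8.65 in 3×TgAD and 8.44 to 9.70 in 3×TgAD-BKO mice, a change of 0.56 (SE 0.22, limma adjusted p = 0.375), and the ranges overlapped. In all, the 5 mice of one genotype lay wholly above the 5 of the other for 3 members in the hippocampus (Sox9, Id4 and Cp; 2.3% of all genes) and 2 in the brain (Id4 and S1pr3; 4.49% of all genes), each time with 3×TgAD-BKO higher.

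**Figure D3:**
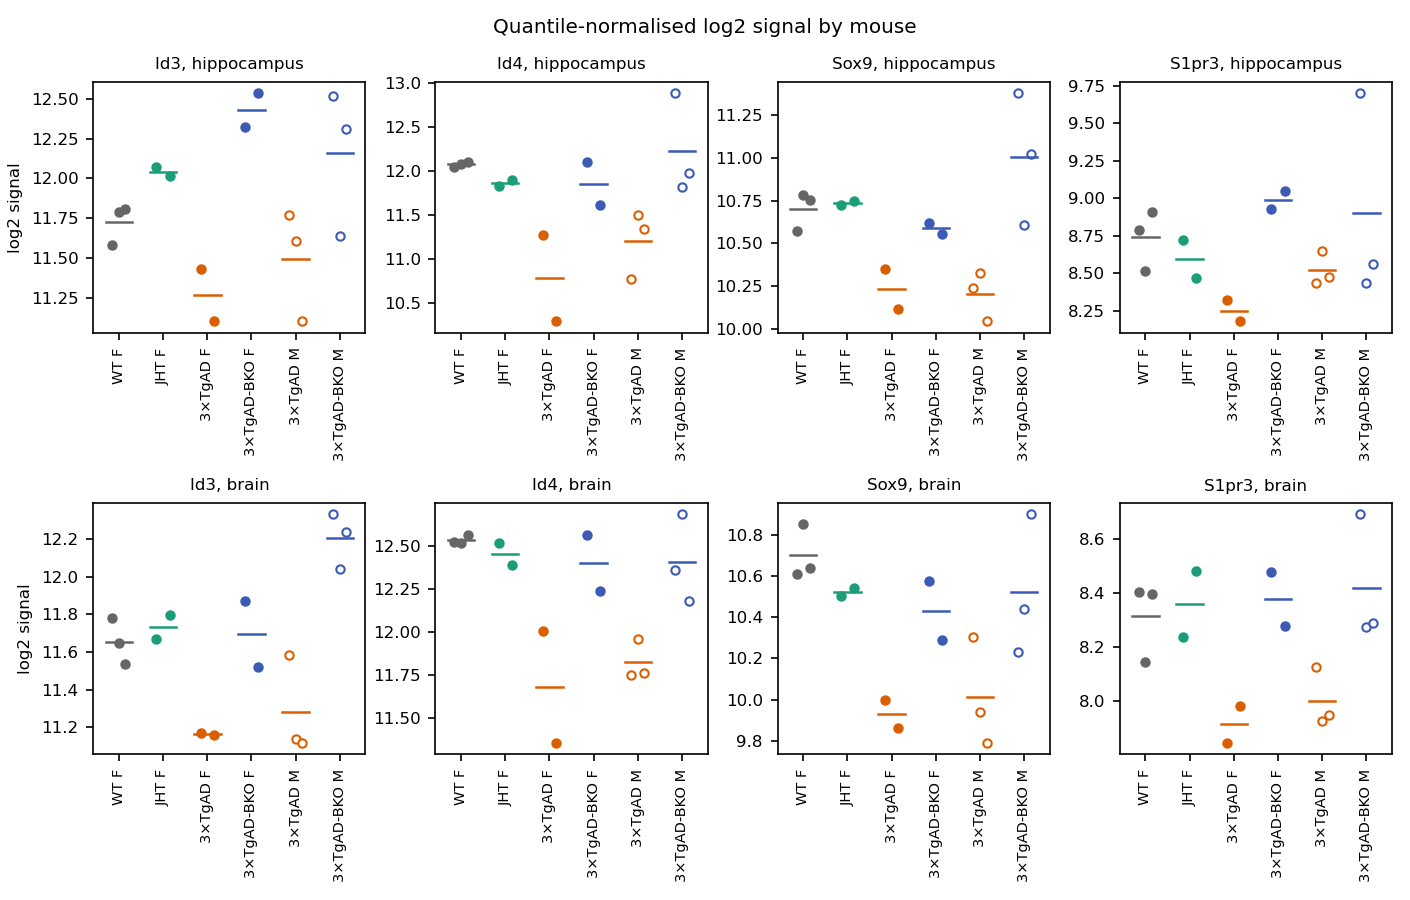
Log2 signal of Id3, Id4, Sox9 and S1pr3 in each mouse, hippocampus above and brain below, with filled points for females, open points for males and a line at each group's mean (axes do not start at 0). Id4 of every 3×TgAD mouse lies below every other mouse in both tissues, and 1 of the 3×TgAD-BKO males has Id3 within the 3×TgAD range in the hippocampus.

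Id3 is also made by endothelium, and levels of markers of endothelial cells were set beside it. All 10 endothelial markers examined were well above background on every array and none was at the floor. Their summed signal in the hippocampus was 15.49 to 15.82 in 3×TgAD, 15.89 to 16.77 in 3×TgAD-BKO, 15.76 to 16.11 in WT and 15.99 to 16.23 in JHT mice. In the brain it was 15.98 to 16.23, 16.27 to 16.82, 16.14 to 16.55 and 16.18 to 16.37. Between 3×TgAD-BKO and 3×TgAD all 10 changes were positive in the hippocampus and 9 of 10 in the brain, with medians of 0.41 and 0.37, and 1 and 2 of the 10 passed, against 1.02% and 2.64% of all genes. Lists for 3 other kinds of cell were well above background but for 1 gene of the meninges and pericytes in the hippocampus. In the brain the mean log2 signal of 10 microglial markers was 12.47 to 12.63 in 3×TgAD and 12.68 to 13.03 in 3×TgAD-BKO mice. That of 8 ependymal markers was 8.84 to 9.00 and 9.02 to 9.54, and that of 10 markers of meninges and pericytes 10.02 to 10.288 and 10.288 to 10.57. None of the 3 overlapped between the genotypes, and 1, 2 and 1 of their genes passed, against 2.64% of all genes. Their summed signals, 17.26 to 17.49 and 17.31 to 17.61, 12.28 to 12.44 and 12.39 to 12.90, and 14.58 to 14.85 and 14.88 to 15.13, overlapped for microglia and ependyma. In the hippocampus no gene of the 3 lists passed by limma, with 2, 0 and 6 at an unadjusted p under 0.05, and the means overlapped, those of meninges and pericytes at 9.29 to 10.32 in 3×TgAD and 9.63 to 10.85 in 3×TgAD-BKO mice. The part of any of these cells in the Id3, Id4, Sox9 and S1pr3 changes was not tested.

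Most of these calls hung on single mice, other than that of Id3 in the brain over both sexes. Id3 in the hippocampus passed in only 1 of the 10 fits that left out 1 mouse, that without 3×TgAD-BKO male 8 (1.04, limma adjusted p = 0.00881). In the other 9, which left out each 3×TgAD mouse or another 3×TgAD-BKO mouse, the adjusted p was 0.0542 (without 3×TgAD male 3) to 0.159 (without 3×TgAD female 2), and the change over the 10 fits was 0.82 to 1.04. Id3 in the brain passed in all 10 such fits over both sexes, at 0.64 to 0.81. In males alone it passed in 3 of 6 fits, and not without 3×TgAD-BKO male 0 (0.86, adjusted p = 0.0538), 3×TgAD male 4 (0.85, adjusted p = 0.065) or 3×TgAD male 5 (0.84, adjusted p = 0.0524). Id4 in the brain passed in 3 of 10 fits, those without 3×TgAD female 1, 3×TgAD-BKO female 7 and 3×TgAD-BKO male 9. In the other 7 its change was 0.49 (without 3×TgAD female 2, adjusted p = 0.0895) or more and its adjusted p at most 0.113 (0.57, without 3×TgAD-BKO female 6). Sox9 in the hippocampus passed in 1 of 10, without 3×TgAD-BKO male 8, at 0.68 (adjusted p = 0.0141), and S1pr3 in the brain in 1 of 10. The hippocampal array of male 8 stood apart in markers of other cells. Its mean log2 signal of 10 oligodendrocyte markers was 11.94, against 12.53 to 13.36 in the other 14 hippocampi, its ependymal mean of 8.80 was the lowest of the 15, and its mean for meninges and pericytes, 9.63, the lowest of its genotype. Their part in the Id3 and Sox9 values was not tested. On the 1 slide per tissue that held both genotypes and both sexes, the only 3×TgAD-BKO male was male 0 in the hippocampus and male 8 in the brain. There the hippocampal changes over both sexes were 1.10 for Id3, 1.38 for Id4, 0.77 for Sox9 and 0.96 for S1pr3. In the brain they were 0.65 for Id3, 0.79 for Id4, 0.46 for Sox9 and 0.37 for S1pr3.

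Cp was the member with the widest change in the hippocampus. There it was 8.85 and 9.50 in female and 9.27, 10.04 and 9.00 in male 3×TgAD mice, and 10.33 and 10.60 in female and 11.76, 11.69 and 10.38 in male 3×TgAD-BKO mice. WT mice had 9.63, 9.56 and 9.66 and JHT mice 10.56 and 10.37. The 3×TgAD-BKO range lay above that of 3×TgAD without overlap, and males 0 and 8 stood above the other 3 mice of their genotype. The change was 1.56 with both sexes (SE 0.29, limma adjusted p = 0.0336), 1.29 in females (SE 0.45, limma adjusted p = 0.211) and 1.83 in males (SE 0.37, limma adjusted p = 0.052). In the brain Cp was 9.97 and 10.07 in female and 10.31, 9.97 and 10.23 in male 3×TgAD mice, against 10.30 and 9.99 in female and 11.86, 12.38 and 10.45 in male 3×TgAD-BKO mice. Again males 0 and 8 were high and the females overlapped, with 10.57, 9.89 and 10.27 in WT and 10.30 and 10.67 in JHT mice. The brain change was 0.76 with both sexes (SE 0.31, limma adjusted p = 0.295), 0.13 in females and 1.40 in males (SE 0.40, limma adjusted p = 0.179). The second probe of Cp, well above background on 29 arrays, moved less, at 0.50 (hippocampus) and 0.21 (brain). On the hippocampal array of male 0 it went the other way. It gave 4.37 there, below the lowest of the other hippocampi at 5.18, whereas the probe used was at its highest with 11.76.

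Cd14 followed the same mice. In the hippocampus it was 9.02 and 8.82 in female and 8.48, 9.39 and 8.59 in male 3×TgAD mice, and 9.21 and 8.95 in female and 10.97, 10.80 and 8.74 in male 3×TgAD-BKO mice. In the brain it was 8.69 and 8.79 in female and 8.86, 9.05 and 9.05 in male 3×TgAD mice, and 9.27 and 8.70 in female and 10.69, 11.89 and 8.72 in male 3×TgAD-BKO mice. Males 0 and 8 exceeded every other mouse in both tissues, and the other 3 3×TgAD-BKO mice overlapped with 3×TgAD. WT mice had 8.47, 8.29 and 8.54 in the hippocampus and 8.78, 8.52 and 8.38 in the brain, and JHT brains had 8.40 and 8.90. The change in males was 1.35 in the hippocampus (SE 0.49, limma adjusted p = 0.192) and 1.45 in the brain (SE 0.60, limma adjusted p = 0.392). Steap4 in the brain was well above background in 2 of the 3 3×TgAD-BKO males and in none of the 3×TgAD males, and no order is given between them.

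Osmr, the receptor subunit for oncostatin M, was 10.02 and 10.09 in female and 9.44, 9.996 and 9.83 in male 3×TgAD hippocampi, and 9.998 and 9.65 in female and 10.86, 10.60 and 9.88 in male 3×TgAD-BKO hippocampi. Here too males 0 and 8 were the highest, and the change in males was 0.69 (SE 0.23, limma adjusted p = 0.161). That order did not hold in the brain, where male 8 was the highest at 10.33 and male 0, at 9.42, lay below 4 of the 5 3×TgAD mice (9.40 to 10.07). Timp1 did not separate the genotypes. In the hippocampus it was 7.19 and 6.25 in female and 5.06, 6.21 and 7.01 in male 3×TgAD mice, and 7.45 and 7.86 in female and 8.60, 7.22 and 5.46 in male 3×TgAD-BKO mice. WT mice had 4.80, 5.90 and 5.91 and JHT mice 6.79 and 6.57. In the brain the 3×TgAD mice ranged from 7.54 to 9.79 and the 3×TgAD-BKO mice from 7.53 to 9.55, with both extremes of the former set by a female and by male 5.

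**Figure D4:**
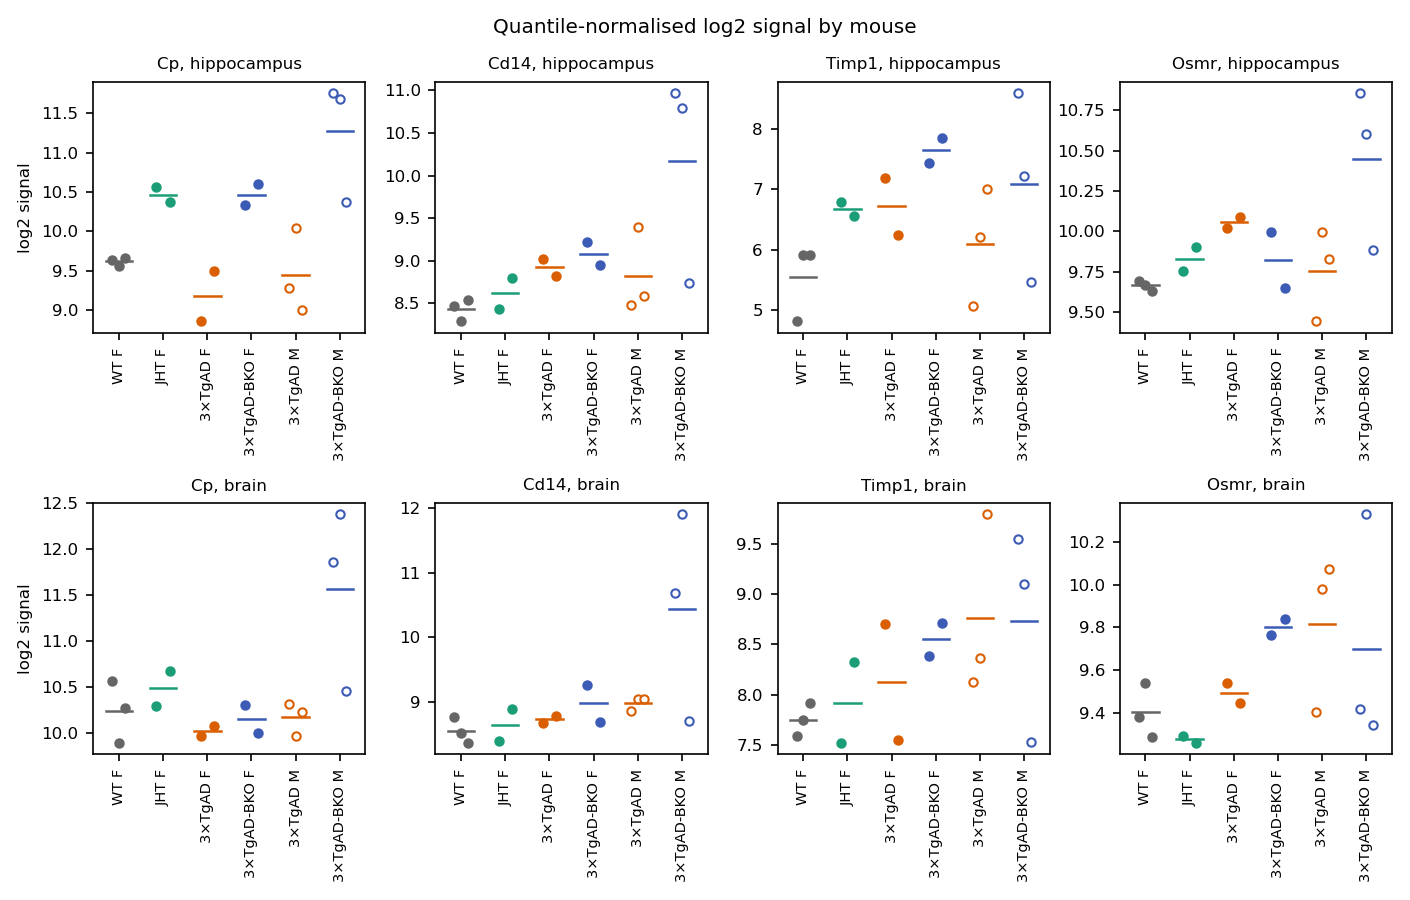
Log2 signal of Cp, Cd14, Timp1 and Osmr in each mouse, hippocampus above and brain below, with filled points for females, open points for males and a line at each group's mean (axes do not start at 0). Of the 3×TgAD-BKO males, 2 stand above all other mice for Cp and Cd14 in both tissues.

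Leaving out 1 male moved these values. Without 3×TgAD-BKO male 9, Cp rose by 2.28 in hippocampi of males (limma adjusted p = 0.00381) and Cd14 by 2.06 (adjusted p = 0.00350), and in the brain Cp rose by 1.95 (adjusted p = 0.00327) and Cd14 by 2.30 (adjusted p = 0.00838). Without male 8 the 4 values were 1.63, 1.03, 0.99 and 0.71, none of which passed. With both sexes, the hippocampal change of Cp passed in 3 of 10 fits, those without 3×TgAD female 2 (1.72, adjusted p = 0.0486), 3×TgAD male 4 (1.71, adjusted p = 0.0262) and 3×TgAD-BKO male 9 (1.79, adjusted p = 0.00332). Without any of the other 7 mice, males 0 (1.44) and 8 (1.46) among them, it missed, with adjusted p up to 0.116 (without 3×TgAD female 1). No mouse could be left out with both Id3 and Cp still past the threshold in the hippocampus. On the slide with both genotypes and sexes the male arm of 3×TgAD-BKO was 1 of the 2 high mice, male 0 in the hippocampus and male 8 in the brain, so that its values describe those mice. Cp differed there by 1.80 in the hippocampus (adjusted p = 0.0288) and by 1.17 in the brain (adjusted p = 0.0119), and Cd14 by 1.15 (adjusted p = 0.0571) and 1.58 (adjusted p = 0.00993).

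Markers of neutrophils and of blood were high in male 0, and in male 8 by the mean of their log2 signals but not by their sum. Of the 10 such markers, 8 were well above background on all arrays. They mix genes of neutrophils with genes of red cells, and Lcn2 is also among the other genes of reactive astrocytes given below. The mean of the log2 signals in the hippocampus was 12.14 in male 0 and 10.93 in male 8, against 9.53 in male 9, 9.49 and 9.97 in the 3×TgAD-BKO females, 8.89 to 9.60 in 3×TgAD and 9.07 to 9.26 in WT mice. In the brain it was 12.94 in male 0, 11.63 in male 8, 10.74 in male 9 and 9.93 and 11.13 in the females, with 9.50 to 11.58 in 3×TgAD mice. The summed signal of male 0 was the highest of the 3×TgAD-BKO mice, at 17.33 in the hippocampus and 17.71 in the brain, and that of male 8, at 16.09 and 16.80, the lowest. In 3×TgAD mice the sum was 15.61 to 16.93 and 16.04 to 17.73. None of the 10 passed by limma in males, with 4 in the hippocampus and 6 in the brain at an unadjusted p under 0.05 (18.2% and 11.5% of all genes), and their median change there was 2.11 and 2.76. The JHT mice also spanned 9.57 to 12.37 in the hippocampus, with Cd14 at 8.44 and 8.79. By the same mean, though in male 8 not by the sum (17.40 in its brain against up to 17.49 in 3×TgAD brains), microglial markers were also highest in males 0 and 8, with 13.62 and 13.21 in the hippocampus, against 12.93 to 13.20 in the other 3×TgAD-BKO and 12.81 to 13.20 in 3×TgAD mice. In the brain it was 13.03 and 12.91, against 12.68 to 12.83 and 12.47 to 12.63. The part of these cells in the Cp, Cd14 and Osmr values was not tested.

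The intermediate filament genes did not pass. Gfap, the filament by which reactive astrocytes are stained, was 13.73 and 13.33 in female and 13.70, 13.71 and 13.41 in male 3×TgAD hippocampi. In 3×TgAD-BKO hippocampi it spanned 12.54, in male 8, to 14.21, in male 0, and so enclosed the 3×TgAD range. The change was 0.12 in the hippocampus (SE 0.27, limma adjusted p = 0.933), with 0.40 in females (SE 0.43) and −0.16 in males (SE 0.35), and 0.31 in the brain (SE 0.17, limma adjusted p = 0.443), with 0.31 in females (SE 0.26) and 0.32 in males (SE 0.21). These values are of the brightest Gfap probe, which moved least. The other Gfap probes gave 0.21 and 0.25 in the hippocampus and 0.46 and 0.77 in the brain, over both sexes. Vim, the vimentin gene, was 12.85 ± 0.51 in 3×TgAD-BKO against 12.39 ± 0.31 in 3×TgAD hippocampi and 13.38 ± 0.19 against 13.06 ± 0.19 in the brain (mean ± SD, n = 5 mice each). The changes were 0.46 (SE 0.25, limma adjusted p = 0.602) and 0.36 (SE 0.12, limma adjusted p = 0.204). Nes, the gene of nestin, had 0.37 (SE 0.17) and 0.30 (SE 0.14). Of the other reactivity members, Cd44, the hyaluronan receptor gene, had 0.39 (SE 0.18) in the hippocampus and 0.11 (SE 0.09) in the brain. Emp1, a membrane protein gene, had 0.45 (SE 0.29) and 0.18 (SE 0.29), and Stat3 had 0.18 (SE 0.10) and −0.11 (SE 0.09).

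Identity members for transport and metabolism did not pass. Aqp4, the water channel of the end feet, was 11.86 ± 0.20 in 3×TgAD-BKO against 11.59 ± 0.18 in 3×TgAD hippocampi and 12.44 ± 0.45 against 12.44 ± 0.30 in brains (mean ± SD, n = 5 mice each). Its change was 0.26 in the hippocampus and 0.05 in the brain (SE 0.16, limma adjusted p = 0.926). In females it was 0.19 and 0.28, and in males 0.33 and −0.18. Slc1a2, the main glutamate transporter of astrocytes, was 13.51 ± 0.09 against 13.45 ± 0.12 and 12.44 ± 0.36 against 12.46 ± 0.12. Glul, glutamine synthetase, had a mean of 15.86 (15.70 to 16.03) against 16.06 (15.96 to 16.18) in the brain, a change of −0.23 (SE 0.06, limma adjusted p = 0.0835) that did not pass. The gap junction genes Gjb6 and Gja1 had −0.30 (SE 0.11) and −0.08 (SE 0.07) in the brain, where Gjb6 of 4 3×TgAD-BKO mice (14.10 to 14.57) lay below all 3×TgAD mice (14.61 to 14.78) and male 8 stood at 14.75. Fabp7, a fatty acid carrier of immature astrocytes, had 0.89 in female hippocampi (SE 0.32, limma adjusted p = 0.217) and −0.18 in males (SE 0.26). Slc4a4, a bicarbonate cotransporter gene, had 0.34 in the hippocampus (SE 0.14) and −0.17 in the brain (SE 0.18). The remaining 9 of these members, which include the glutamate transporter gene Slc1a3, the end foot gene Mlc1 and the amino acid transporter gene Slc7a10, had changes from −0.13 to 0.07 in the hippocampus, at Slc1a3 and Aldh1l1, and from −0.09 to 0.11 in the brain, at Mlc1 and Clu.

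The largest falls among identity members rested on 1 array. Fgfr3, a growth factor receptor gene, was 10.61 in the hippocampus of 3×TgAD-BKO male 0 and 13.60 to 14.16 in the other 4 3×TgAD-BKO mice, with 13.73 to 14.04 in 3×TgAD mice. S100b, a calcium-binding protein gene, was 13.58 on that array and 14.88 to 15.16 in the other 4. The Fgfr3 change in males was −0.92 with male 0 and 0.24 without it, and the S100b change −0.54 and −0.07. A second Fgfr3 probe gave 9.55 on the array of male 0, above the lowest of the other 14 hippocampal arrays at 9.35. This array also had the 432 outlier spots, but the Fgfr3 and S100b probes used were flagged as outliers on 0 arrays. The part of the array's quality in these values was not tested. In the brain male 0 was also the lowest of the 15 mice, with 13.69 for Fgfr3 and 15.59 for S100b, the next mouse being at 13.73 and 15.76. Fgfr3 of 4 3×TgAD-BKO brains (13.69 to 13.74) lay below all 3×TgAD brains (13.85 to 14.07), and that of male 9 was 14.10.

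Mt1 and Mt2 are neighbouring paralogues on chromosome 8 that code for metallothioneins, small proteins that bind zinc and copper, and are induced in astrocytes by metals and glucocorticoids. Their promoters (GRCm38.p6, Mt1 at chr8:94178839-94179138 and Mt2 at chr8:94172368-94172667, both plus strand, from RefSeq) are shown because they share the response element for metals. Capitals mark its core, TGCACNC or TGCGCNC on either strand.
Mt1: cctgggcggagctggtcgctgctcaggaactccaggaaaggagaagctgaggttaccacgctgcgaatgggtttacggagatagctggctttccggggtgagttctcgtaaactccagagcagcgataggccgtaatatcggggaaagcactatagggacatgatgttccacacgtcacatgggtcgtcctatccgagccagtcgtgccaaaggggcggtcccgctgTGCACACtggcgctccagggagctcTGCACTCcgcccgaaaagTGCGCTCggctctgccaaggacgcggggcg
Mt2: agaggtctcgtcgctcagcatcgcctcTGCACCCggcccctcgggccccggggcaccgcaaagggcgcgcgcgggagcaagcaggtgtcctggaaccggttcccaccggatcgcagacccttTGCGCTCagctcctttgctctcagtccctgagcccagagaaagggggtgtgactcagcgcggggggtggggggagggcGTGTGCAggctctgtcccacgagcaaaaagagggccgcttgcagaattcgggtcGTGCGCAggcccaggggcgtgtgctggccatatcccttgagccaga
The Mt1 window held 3 such cores and the Mt2 window 4, where 25.7% of all promoters and 11 of the 36 entries of the members held at least 1. Id3, above, held 2.

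Mt1 in the brain was 17.73 and 17.76 in female and 17.63, 17.69 and 17.67 in male 3×TgAD mice. In 3×TgAD-BKO mice it was 17.39 and 17.19 in females and 17.22, 17.69 and 17.54 in males. The females and males 0 and 9 lay below all 3×TgAD mice, while male 8 lay within their range. The change was −0.32 (SE 0.09, limma adjusted p = 0.111), with −0.45 in females (SE 0.14, limma adjusted p = 0.179). In female hippocampi Mt1 was 17.61 in both 3×TgAD mice and 17.34 and 17.04 in the 3×TgAD-BKO mice, a difference of −0.42 (SE 0.12, limma adjusted p = 0.167) that did not pass. A second Mt1 probe gave −0.89 in the hippocampus and −0.69 in the brain with both sexes. Mt2 in female hippocampi was 17.12 and 17.22 in 3×TgAD and 16.97 and 16.72 in 3×TgAD-BKO mice, a difference of −0.32 (SE 0.14, limma adjusted p = 0.294). The paralogues thus differed in the same direction in females, and in neither did a change pass.

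Aspg, an asparaginase gene of the pan-reactive list, was the only member that passed in a comparison with WT mice. In the hippocampus it was 9.71, 9.73 and 9.93 in WT, 10.47 and 10.55 in JHT, 10.45 and 10.63 in female 3×TgAD and 10.63 and 10.60 in female 3×TgAD-BKO mice. The 3 WT mice were the lowest of all 15. The change was 0.75 for 3×TgAD against WT (1.68-fold, SE 0.10, limma adjusted p = 0.0104) and 0.72 for JHT against WT (1.64-fold, SE 0.10, limma adjusted p = 0.0386). In these 2 comparisons 1 of 36 members passed, against 0.746% and 0.0926% of all genes. At an unadjusted p under 0.05 there were 5 and 2 members (12% and 7.83% of all genes). The comparisons share the WT mice. For 3×TgAD against WT Aspg no longer passed with the slide as a random block (0.71, adjusted p = 0.0671), with normexp (0.64, adjusted p = 0.233), with only these groups in the fit (adjusted p = 0.116) or without 3×TgAD female 2 (0.66, adjusted p = 0.0666). For JHT against WT it was lost in 9 of 16 alternatives, such as without WT mouse 10 (0.68, adjusted p = 0.147), WT mouse 11 (0.69, adjusted p = 0.162) or JHT mouse 14 (0.68, adjusted p = 0.0787). Of 8 markers of the choroid plexus, 7 were well above background in every hippocampus. Their mean log2 signal in the hippocampus was 7.14 to 8.39 in WT, 12.59 and 13.61 in JHT, 9.45 and 9.62 in female 3×TgAD and 8.59 and 13.52 in female 3×TgAD-BKO mice, and 7.45, within the WT range, in 3×TgAD-BKO male 8. All 8 were positive in both comparisons and none passed by limma, with 0 and 8 at an unadjusted p under 0.05. In the brain the mean was 10.99 to 11.80 in WT and 10.68 to 11.69 in the other mice. Their part in the Aspg values was not tested. In the brain Aspg was 10.45, 10.40 and 10.55 in WT and 10.94 and 10.81 in female 3×TgAD mice, a change of 0.41 (SE 0.13, limma adjusted p = 0.245), and JHT mice had 10.52 and 10.92. Aspg lies on chromosome 12, where 28 protein-coding genes separate it from the immunoglobulin heavy chain cluster in which the JHT deletion lies (RefSeq, GRCm38.p6).

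In the brain no member passed for 3×TgAD against WT (1.15% of all genes did), and 7 were at an unadjusted p under 0.05 (11% of all genes). The transcriptional regulators had negative values that did not pass. Id4 had −1.30 in the hippocampus (SE 0.36, limma adjusted p = 0.158) and −0.85 in the brain (SE 0.19, limma adjusted p = 0.0742). Sox9 had −0.47 (SE 0.19) and −0.77 (SE 0.20, limma adjusted p = 0.122), and Id3 had −0.49 in the brain (SE 0.16, limma adjusted p = 0.242). These comparisons and those of 3×TgAD-BKO share the 3×TgAD females, and 9 of the 10 endothelial markers were negative in each tissue, with medians of −0.35 and −0.36. Ntsr2, a neurotensin receptor gene specific to astrocytes, was 14.83 and 14.71 in female 3×TgAD and 14.45, 14.29 and 14.46 in WT hippocampi (change 0.37, SE 0.13, limma adjusted p = 0.288) and had 0.35 in the brain. Gfap had 0.19 in the hippocampus (SE 0.39, limma adjusted p = 0.997) and 0.08 in the brain (SE 0.24, limma adjusted p = 0.987). Aqp4 had 0.02 and 0.01.

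For JHT against WT mice in the brain no member passed by limma and none had an unadjusted p under 0.05 (0.161% and 6.31% of all genes), with Gfap at −0.07 in the brain and 0.04 in the hippocampus, and Aqp4 at −0.42 and −0.35. Between 3×TgAD-BKO and JHT females, which both lack B cells, no member passed in either tissue. There were 3 members at an unadjusted p under 0.05 in the hippocampus (9.78% of all genes, with 0.229% after adjustment) and 4 in the brain (10.6%, with 0.667% after adjustment). Ntsr2 was 14.99 and 15.01 in 3×TgAD-BKO and 14.33 and 14.43 in JHT hippocampi, a change of 0.62 (SE 0.15, limma adjusted p = 0.211). Aqp4 was 12.04 and 11.83 against 11.38 and 11.35, a change of 0.57 (SE 0.17, limma adjusted p = 0.372), and in the brain it was 12.84 and 12.94 against 12.20 and 12.17, a change of 0.71 (SE 0.25, limma adjusted p = 0.354). Gfap had 0.55 in the hippocampus (SE 0.43) and 0.46 in the brain (SE 0.26). The methods' t-test with adjustment called none of the 36 in these comparisons either.

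Males were compared with females over the 3×TgAD and 3×TgAD-BKO mice, and no member passed in the hippocampus (0.0381% of all genes did) or the brain (0.139%). At an unadjusted p under 0.05 there were 1, Aspg at −0.34, and 7 members, against 5.82% and 9.38% of all genes. The nearest was Aqp4 in the brain, at −0.53 (limma adjusted p = 0.385), with −0.18 in the hippocampus, and Gfap had −0.20 in the hippocampus and 0.03 in the brain. The difference of the 3×TgAD-BKO change between the sexes passed for no member in the hippocampus (0.0245% of all genes) or the brain (0.101%), with 6 and 2 members at an unadjusted p under 0.05 against 21.2% and 8.75% of all genes. That difference, females minus males, was 0.56 for Gfap in the hippocampus (SE 0.55) and 0.00 in the brain (SE 0.34), and −0.14 (SE 0.22) and 0.46 (SE 0.32) for Aqp4. Acsbg1, an acyl-CoA synthetase gene, came nearest: its change was 0.30 in female and −0.39 in male hippocampi, a difference of 0.69 (SE 0.20, limma adjusted p = 0.0891). The difference of the change between hippocampus and brain, tested in females, passed for no member (0.123% of all genes), with 3 members at an unadjusted p under 0.05 against 9.9% of all genes, and with 0.09 for Gfap and −0.08 for Aqp4.

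The contrast between the tissues was far wider. Of the 36 members, 25 passed between hippocampus and brain over the 15 mice, 10 higher and 15 lower in the hippocampus, against 51.1% of all genes, 25.1% higher and 26% lower. Slc1a2 was higher in the hippocampus of all 15 mice, at 13.25 to 13.66 with a median of 13.52, against 12.02 to 12.86 with a median of 12.41 in the brain, and the ranges did not overlap. The difference was 1.09 (limma adjusted p = 1.56e-13). Gfap was 12.54 to 14.21 with a median of 13.60 in the hippocampus and 12.45 to 13.56 with a median of 12.96 in the brain, and was higher in the hippocampus of 14 of 15 mice (difference 0.54, limma adjusted p = 0.00197). Among receptors S1pr3 (0.43), Osmr (0.35) and Cd44 (0.23) were higher in the hippocampus, and so were Nes (0.25), Id3 (0.23), Sox9 (0.22), Glul (0.15) and Clu, the clusterin gene (0.15).

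Aqp4 was lower in the hippocampus of all 15 mice, at 11.35 to 12.09 with a median of 11.68 against 11.90 to 12.94 with a median of 12.36 in the brain (difference −0.78, limma adjusted p = 6.59e-08). This held for 1 probe, with means of 11.68 and 12.44, whereas the other Aqp4 probe had 11.54 and 11.52. S100b (−1.08, limma adjusted p = 8.46e-08), Atp1b2 (−0.82, limma adjusted p = 7.32e-13) and Timp1 (−1.68, limma adjusted p = 9.49e-05) were each lower in all 15 mice. The ranges of Atp1b2, 14.86 to 15.15 and 15.71 to 15.95, did not overlap. Vim was lower in 14 mice (−0.64, limma adjusted p = 9.84e-05), the opposite of Gfap, and Id4 in 14 mice (−0.54, limma adjusted p = 0.000688), the opposite of Id3. The remaining lower members were Gjb6 (−0.46), Acsbg1 (−0.45), Fabp7 (−0.40), Aspg (−0.38), Aldh1l1 (−0.31), Aldoc (−0.28), Ntsr2 (−0.20), Mt2 (−0.16) and Slc1a3 (−0.14). Not passing were Gja1, Slc4a4, Fgfr3, Mlc1, Slc7a10, Steap4, Cp, Cd14, Emp1, Stat3 and Mt1.

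**Figure D5:**
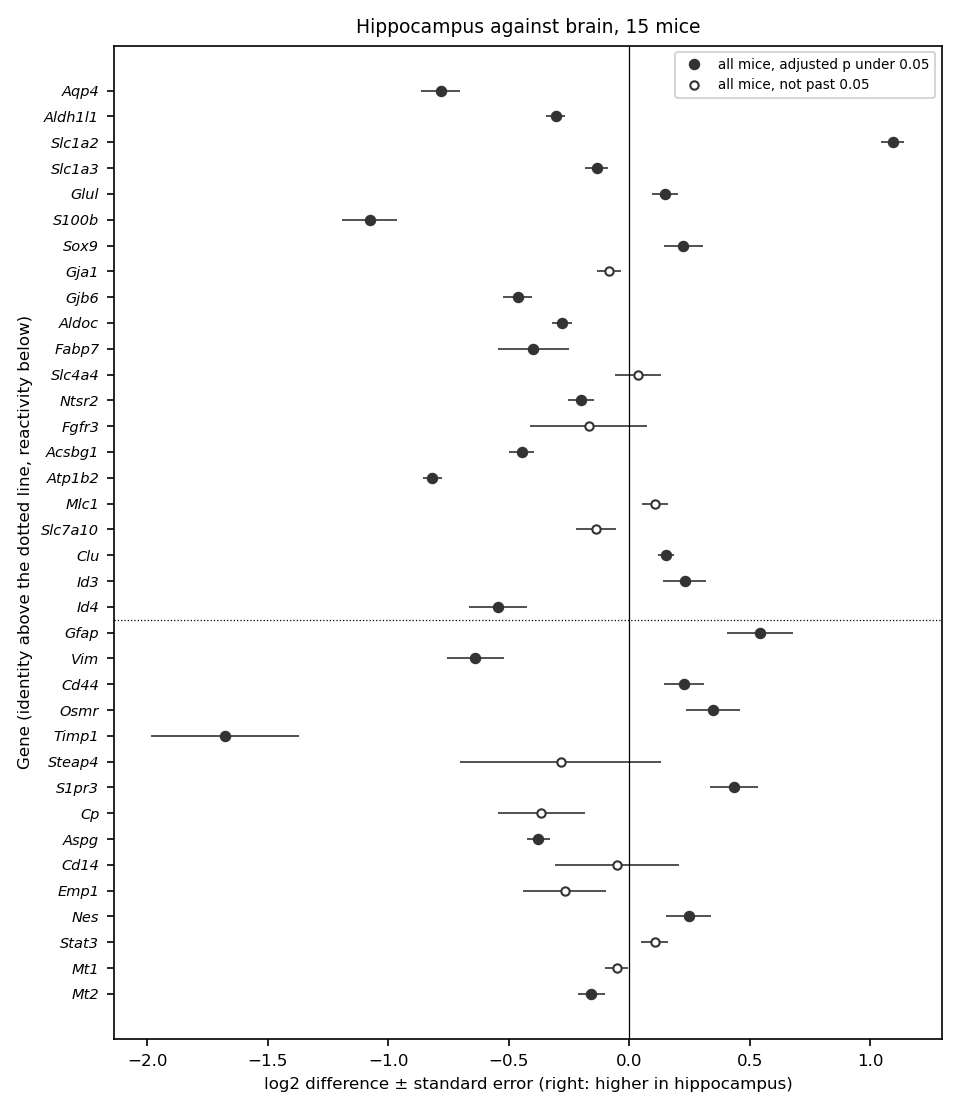
Difference between hippocampus and brain for each member over 15 mice, as log2 difference ± SE, with filled points where the adjusted p lay under 0.05. Slc1a2 lies farthest to the right at 1.09 and Timp1 farthest to the left at −1.68.

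Markers of other cell types were counted in the same contrast, in which 51.1% of all genes passed. Of 10 microglial markers 8 were higher in the hippocampus and 0 lower, of 8 ependymal markers 5 were higher and 0 lower, and of 8 choroid plexus markers 0 were higher and 5 lower. Of 10 oligodendrocyte markers 1 was higher and 4 lower, of 10 endothelial markers 1 and 5, of 10 markers of meninges and pericytes 3 and 4, and of 10 neuronal markers 4 and 5. Mean log2 signals over the 15 mice were 13.06 in hippocampus and 12.69 in brain for microglia, 9.88 and 11.23 for choroid plexus, 12.82 and 13.09 for oligodendrocytes and 10.05 and 10.31 for meninges and pericytes. Their part in the tissue differences of the members was not tested. The split between higher and lower members hung on the scaling of the arrays. Scaling to the 75th percentile moved the median of all genes from 0.00 to 0.28 and gave 14 higher and 12 lower members, with Aldoc at 0.39 and Mt2 at 0.24. Quantile normalisation within each tissue moved the median of all genes to −0.77 and gave 0 higher and 34 lower. Tissue and slide overlapped in part, and with the slide as a random block 12 members passed, 1 higher and 11 lower. With the mouse as a random block for its paired samples, 25 passed again, 10 higher and 15 lower. With 1 mouse left out, Id3 passed in 7 of 15 fits, Sox9 and Cd44 in 9, Nes in 10, Glul and Mt2 in 11, Fabp7 in 12 and Slc1a3 in 13.

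Of 30 other astrocyte genes none passed by limma between 3×TgAD-BKO and 3×TgAD in the hippocampus, where 7 had an unadjusted p under 0.05 (10.5% of all genes). In the brain Etnppl, an enzyme gene that breaks down phosphoethanolamine, was lower (change −0.43, limma adjusted p = 0.0265), as was F3, the tissue factor gene (change −0.40, limma adjusted p = 0.0283). Of 30 other genes of reactive astrocytes, 1 passed in the hippocampus, where 1.02% of all genes did, and 4 in the brain, where 2.64% did. In the hippocampus 24 of them were well above background on every array. The mean log2 signal of the list there, Serpina3n included, was 8.82 to 9.71 in 3×TgAD-BKO and 8.24 to 8.78 in 3×TgAD mice, without overlap. It was 8.32 to 8.52 in WT and 9.03 and 9.06 in JHT mice. In the brain it overlapped, at 8.95 to 9.72 in 3×TgAD-BKO and 8.77 to 8.98 in 3×TgAD mice. Serpina3n, a secreted protease inhibitor, was 12.37 to 13.62 in 3×TgAD-BKO against 10.10 to 10.56 in 3×TgAD hippocampi (change 2.67, limma adjusted p = 0.000302) and 10.55 to 12.44 against 8.40 to 8.49 in brains (change 2.86, limma adjusted p = 0.000205). JHT mice had 13.04 and 13.32 in the hippocampus, and JHT against WT gave 3.00 (limma adjusted p = 0.00574). Serpina3n lies on chromosome 12 too, 99 protein-coding genes from the heavy chain cluster. In the brain Cxcl10, a chemokine induced by interferon, was higher by 1.18 (limma adjusted p = 0.0289), the guanylate-binding protein gene Gbp2 by 0.95 (limma adjusted p = 0.0160) and Tm4sf1 by 0.61 (limma adjusted p = 0.0262). With 1 mouse left out, Etnppl and Tm4sf1 passed in 5, F3 and Cxcl10 in 4, Gbp2 in 9 and Serpina3n in all of 10 fits. Between the tissues 25 of the 30 other astrocyte genes and 18 of the 30 other reactive genes passed, against 51.1% of all genes, with −2.19 for Chrdl1, which codes for an inhibitor of bone morphogenetic proteins, and −1.38 for Agt, the angiotensinogen gene.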

How the data were processed

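Total RNA of hippocampus and brain of 15 mice was hybridised to 30 1-colour Agilent mouse arrays, and per the labels each array holds 1 mouse and 1 tissue. The authors deposited scanner files whose processed intensity had been background-subtracted and detrended by Agilent Feature Extraction 12.0.3.1, with flags for outlier spots, and a value table. That deposited table holds a score whose scale is not given in the sources used here. It followed the log10 processed intensity, centred and scaled within each array (correlation of at least 0.999996 per array, column medians of −0.31 to −0.2), and served as an alternative.

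Of 62976 spots, 3671 controls were left out, as were outlier spots. The processed intensity was taken to log2 and quantile-normalised over the 30 arrays after the study's methods, spots of a probe were averaged, and each gene was read from its brightest probe on average, which left 36717 genes and transcripts, 21368 of them with a symbol. The 6 groups of genotype and sex were fitted over the 15 arrays of a tissue with limma 3.58.1 in R 4.3.3 (statmod 1.5.0, data.table version 1.17.8), 12 groups over 30 arrays for contrasts of the tissues, with Benjamini-Hochberg adjustment and a threshold of 0.05. Changes over both sexes average those of females and males. The steps were tested on simulated data. No array was a copy of another (highest correlation 0.998). The members and lists were chosen with earlier results of these data known. Members past the threshold are named with their change in each comparison, Gfap and Aqp4 in each also where they did not pass, all members by their levels, and of each further astrocyte list up to 5 genes past the threshold. Tissues of a mouse share the animal: over 19491 genes the deviations of the 15 pairs correlated at a median of 0.105 (−0.178 to 0.240), against −0.0446 for other mice of the group, and the mouse was a block in an alternative. The other alternatives were scaling to the 75th percentile, normalisation within each tissue, normexp background correction with an offset of 50, leaving out dim probes, averaging all probes of a gene, other sets of arrays in the fit, the slide as a block, the methods' t-test, and leaving out each mouse in turn. Fits on 1 slide were added after the data were seen. The number of arrays limits the precision. Promoters came from the RefSeq table of GRCm38.p6, and an annotation of another build was not used for probe positions.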

Additional observations from a re-analysis of the deposited data

Results flagged for a closer look

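In the groups of 5 mice, the highest or lowest mouse of each member was compared with its neighbour, as the gap between them over the range of the group, against a critical value of 0.71. Of 144 groups 13 exceeded it, where chance gives about 1 in 20. In the hippocampus of 3×TgAD-BKO male 0, Fgfr3 was low at 10.61 against 13.60 in the next mouse (gap over range 0.843), S100b was low at 13.58 against 14.88 (0.819) and Mlc1 was high at 15.88 against 15.42 (0.717). In that of 3×TgAD-BKO male 8, Id3 was low at 11.64 against 12.31 (0.747), Nes was low at 8.45 against 9.08 (0.877) and Slc4a4 was high at 11.65 against 11.36 (0.744). In 3×TgAD male 4, Slc7a10 was high in both tissues, at 11.995 against 11.35 in the hippocampus (0.902) and 11.74 against 11.60 in the brain (0.782), and Mt1 was low in the hippocampus at 17.38 against 17.57 (0.828). In the brain of 3×TgAD male 5, Fabp7 was high at 13.25 against 12.26 (0.775). Steap4 also exceeded the critical value there (0.888) and is counted among the 13. Its signal was not well above background in any 3×TgAD mouse, so no order is given. Id3 was high in the brain of 3×TgAD male 3 at 11.58 against 11.17 (0.888), and Fgfr3 in the brain of 3×TgAD-BKO male 9 at 14.10 against 13.74 (0.888).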

How the results depend on the processing

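Of the alternatives, 244 counts of members past the threshold were within 1.5 times those reported and 77 were not, and of the changes of single named genes 2287 kept their direction and side of the threshold, 183 no longer passed, 53 newly passed and 79 turned. The reported counts for 3×TgAD-BKO against 3×TgAD (hippocampus 0 in females, 0 in males and 2 over both sexes, brain 0, 1 and 2) became 1, 3 and 4 in the hippocampus and 1 over both sexes in the brain with all 30 arrays in 1 fit, where the genes called among all 36717 went from 136, 311 and 374 to 883, 1895 and 1097 and from 968 to 781. Only the groups compared in the fit gave 0 over both sexes in the hippocampus, 1 over both sexes and 0 in males in the brain (147, 627 and 81 of all genes). Normexp and the filter on dim probes each gave 2 in male hippocampi (416 and 519 of all genes) and 75th percentile scaling 1 (289), the last and the deposited scores 1 over both sexes in the brain, and the mean of the probes 1 over both sexes in the hippocampus. The 1 slide with both genotypes and sexes gave 8 in male and 9 over both sexes in hippocampi and 2 in male brains, where 4468, 3348 and 844 of all genes were called. Its only 3×TgAD-BKO male was male 0 in the hippocampus, on the array with 432 outlier spots, whose low Fgfr3 and S100b were among the 9, and male 8 in the brain. For 3×TgAD against WT in the hippocampus, with 1 reported, normexp, the slide as a random block and only the groups compared gave 0 and all arrays 2, and in the brain, with 0 reported, normexp and the filter on dim probes gave 1. For JHT against WT in the hippocampus, with 1 reported, the 75th percentile, the score table, normexp, the filter and only the groups compared gave 0. The sex difference in the hippocampus gave 1 with all arrays, and the tissue contrast 12 with the slide as a random block. The methods' t-test, which was not run on the tissue contrast or on differences between changes, gave 0 after adjustment in every comparison of 2 groups. Unadjusted it gave, for 3×TgAD-BKO against 3×TgAD, 6, 3 and 6 of 36 members in the hippocampus (13.3%, 10.8% and 6.76% of all genes) and 5, 3 and 11 in the brain (17.7%, 8.32% and 12.8%; females, males, both), for 3×TgAD against WT 10 and 6 (13.5% and 13%), for JHT against WT 8 and 1 (9.28% and 5.76%), for 3×TgAD-BKO against JHT 4 and 4 (8.28% and 15.9%), and for males against females 1 and 2 (2.41% and 5.47%; hippocampus, brain).

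Leaving out 1 mouse at a time gave, for 3×TgAD-BKO against 3×TgAD, 0 to 3 in male and 0 to 2 over both sexes in hippocampi (the 3 without 3×TgAD-BKO male 9, where 1480 of all genes were called against 128 to 232 in the other 5 fits), and 0 to 1 in female, 0 to 3 in male and 1 to 5 over both sexes in brains (the 3 and the 5 again without male 9, with 642 and 1317 of all genes). It gave 0 to 1 for 3×TgAD against WT in each tissue and for JHT against WT in the hippocampus, and 0 to 2 and 0 to 1 for the sex difference in hippocampus and brain. Mouse as a replicate block for the paired tissues left 25 members past the threshold in the tissue contrast as a random term and 25 as a fixed term, of which 9 were higher and 16 lower, 23 of them shared with those reported.

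Directions turned mainly for changes near 0. For the tissue contrast, normalisation within each tissue gave −0.75 for Cd44, −0.48 for Clu, −0.47 for Gfap, −0.68 for Glul, −0.82 for Id3, −0.77 for Nes, −0.70 for Osmr, −0.56 for S1pr3 and −0.83 for Sox9, all of which were positive as reported, where its construction shifts the median of all genes to −0.77. Scaling to the 75th percentile gave 0.39 for Aldoc and 0.24 for Mt2, and the score table, in score units, 0.167 for Aldoc, 0.119 for Mt2 and 0 for Slc1a3. For Gfap, JHT against WT in the hippocampus was −0.034 with the 75th percentile, −0.0067 with the score table and −0.14 with the mean of the probes, and 3×TgAD against WT was −0.12 in the brain with the mean of the probes and −0.17 in the hippocampus with the slide as a block. Gfap in male hippocampi was 0.083 with the slide as a block and 0.60 on 1 slide, and for males against females in the brain it was −0.016 with the 75th percentile, −0.035 with normexp and −0.0066 with the slide as a block. Its sex difference in the brain was 0.051, 0.028 and 0.067 with the 75th percentile, the score table and the slide as a block, and its tissue difference −0.081 and −0.010 with the former pair. For Aqp4, 3×TgAD against WT in the hippocampus was −0.0017 with the score table, −0.044 with the mean of the probes and −0.11 with the slide as a block, and in the brain −0.0041 with the mean of the probes, which gave 0.20 for the sex difference in the hippocampus and 0.048 for the tissue difference. Aqp4 over both sexes in the brain was −0.0056 with the 75th percentile and −0.072 on 1 slide. Mt1 in male hippocampi was −0.083 with the score table, −0.28 with normexp and −0.58 with the mean of the probes, and 0.030 in male brains on 1 slide. Mt2 was −0.050 with the score table and −0.091 on 1 slide in male hippocampi, and 0.013 and 0.084 in male brains. Aspg over both sexes in the hippocampus was −0.055 with normexp. The cause of these turns was not tested.

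Among changes that turned when 1 mouse was left out, Gfap ranged over −0.54 to 0.30 in male hippocampi, −0.069 to 0.35 over both sexes there and −0.0072 to 0.63 in female brains for 3×TgAD-BKO against 3×TgAD. For 3×TgAD against WT it ranged over −0.0060 to 0.39 and −0.11 to 0.28, for JHT against WT over −0.074 to 0.22 and −0.26 to 0.064, for males against females over −0.39 to 0.024 and −0.13 to 0.19 (hippocampus, brain), for the sex difference in the brain over −0.32 to 0.31 and for the tissue difference over −0.31 to 0.48. Aqp4 ranged over −0.059 to 0.12 and −0.24 to 0.27 for 3×TgAD against WT, −0.080 to 0.17 over both sexes in the brain and −0.36 to 0.19 for the tissue difference. Fgfr3 in male hippocampi ranged over −1.54 to 0.24, Mt1 there over −0.033 to 0.089, Cp in female brains over −0.026 to 0.28 and Mt2 in male brains over −0.17 to 0.12.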
